A study of Populus alba x Populus glandulosa with 12 samples.

Results

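Leaf transcript levels were compared between line 2 of hybrid poplar overexpressing PagSUPa, a C2H2-type zinc finger protein, and nontransgenic controls. The 8 libraries of this comparison, 4 of line 2 and 4 of the control, were taken by their labels from the 12 libraries of the series, and all 34749 genes of the deposited table were considered. The other 4 libraries are of overexpression line 7. Leaves of Populus alba × P. glandulosa were the labelled tissue in every group. The labels name no promoter, no leaf stage, no plant age and no treatment, and they do not say whether line 2 is 1 transformation event or whether its replicates are separate plants. The spread behind each p-value is that between these libraries and may be technical only. Each value is a TPM, the share of a library's transcripts that a gene holds, scaled to a fixed total. Sequencing depth is not kept in TPM and is unknown here, so no counting interval is given.

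SUPERMAN and its relatives are plant zinc finger proteins that carry a repression motif and are known in Arabidopsis for setting boundaries and limiting cell division in flowers. The series title names PHRAGMOPLAST ORIENTING KINESIN as the target of PagSUPa in leaf cell division. POK kinesins keep the phragmoplast, the microtubule array that builds the new wall between daughter cells, directed to the chosen division site. Poplar genes are called below by the name of the Arabidopsis gene that the table pairs with them. Their roles are background known mostly from Arabidopsis.

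Total TPM per library was nearly equal, from 999989.2 to 999995.5. Line 2 libraries had 22710 to 23473 genes at or above 1 TPM, and controls had 23228 to 24607. Across tested genes, log2(TPM + 1) correlated at 0.916 to 0.972 between line 2 libraries and at 0.934 to 0.984 between controls, against 0.670 to 0.894 between the groups. Library weights, which are lower the more a library varies around its group, were 0.615, 3.245, 0.601 and 0.627 in line 2 and 0.318, 0.514, 1.89 and 3.02 in controls. Median ratio scaling factors were 0.874 to 0.964 in line 2, 1.217 and 1.199 in control replicates 1 and 2 and 0.967 and 0.985 in control replicates 3 and 4. By correlation control replicate 2 lay close to control replicates 3 and 4 (0.966 and 0.972), and control replicate 1 less so (0.936 and 0.934). Counts without control replicates 1 and 2 are given beside the counts that they moved by over 1.5 times. Mesophyll markers summed to 94850, 65780, 85570 and 46470 TPM in line 2 and 92730 to 106600 TPM in controls. Shoot meristem markers (16 genes) and root markers (4 genes) summed to no more than 1.18 TPM in any of the 8 libraries. Of 16 floral organ identity genes, 1 homolog of AP3 passed the expression filter, at 8.77 to 14.4 TPM in line 2, against 6.63 to 10.4 TPM in controls (log2 fold change 0.38, adjusted p = 0.168).

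The gene that separated the groups most was the homolog of ZFP11 (Potri.002G041700), one of the SUPERMAN relatives. It was at 1247, 1426, 1714 and 1353 TPM in line 2, against 0, 0, 0 and 0.112 TPM in controls. All line 2 libraries were above 1000 TPM, while 3 of 4 controls were listed at 0. Its change on the log2(TPM + 1) scale was 10.44 (SE 0.13, limma adjusted p = 6.47e-13, exact permutation p = 0.0286, two-sided, the smallest p that 4 against 4 libraries can give). No other listed relative (3 homologs of KNUCKLES, 1 of ZFP10 and 1 of RABBIT EARS) exceeded 0.337 TPM in any of the 8 libraries. The table names no gene PagSUPa, and reads of a transgene cannot be told apart from those of a similar native gene.

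Both kinesins of the title were low in these leaves. The POK2 homolog (Potri.004G145800) was at 0.644, 0.547, 0.779 and 0.248 TPM in line 2, against 4.84, 3.32, 1.48 and 1.47 TPM in controls. All line 2 libraries were below all controls, and control replicates 1 and 2 held the highest values (log2 fold change -1.19, SE 0.26, adjusted p = 0.0036, exact permutation p = 0.0286, two-sided). The POK2 difference was -0.68 without control replicates 1 and 2 (exact permutation p = 0.0667, the smallest that this split can give). The exact p was 0.0571 without line 2 replicate 2 and 0.0857 without line 2 replicate 4. The POK1 homolog (Potri.010G153000) lay below the expression filter, at 0.126, 0.081, 0.283 and 0.072 TPM in line 2, against 1.58, 0.882, 0.238 and 0.291 TPM in controls. Line 2 and control values of POK1 overlapped, and its difference of -0.55 on the log2(TPM + 1) scale gave an exact permutation p of 0.0571 (two-sided). Without control replicate 3 that difference was -0.70 (exact permutation p = 0.0286).

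**Figure D1:**
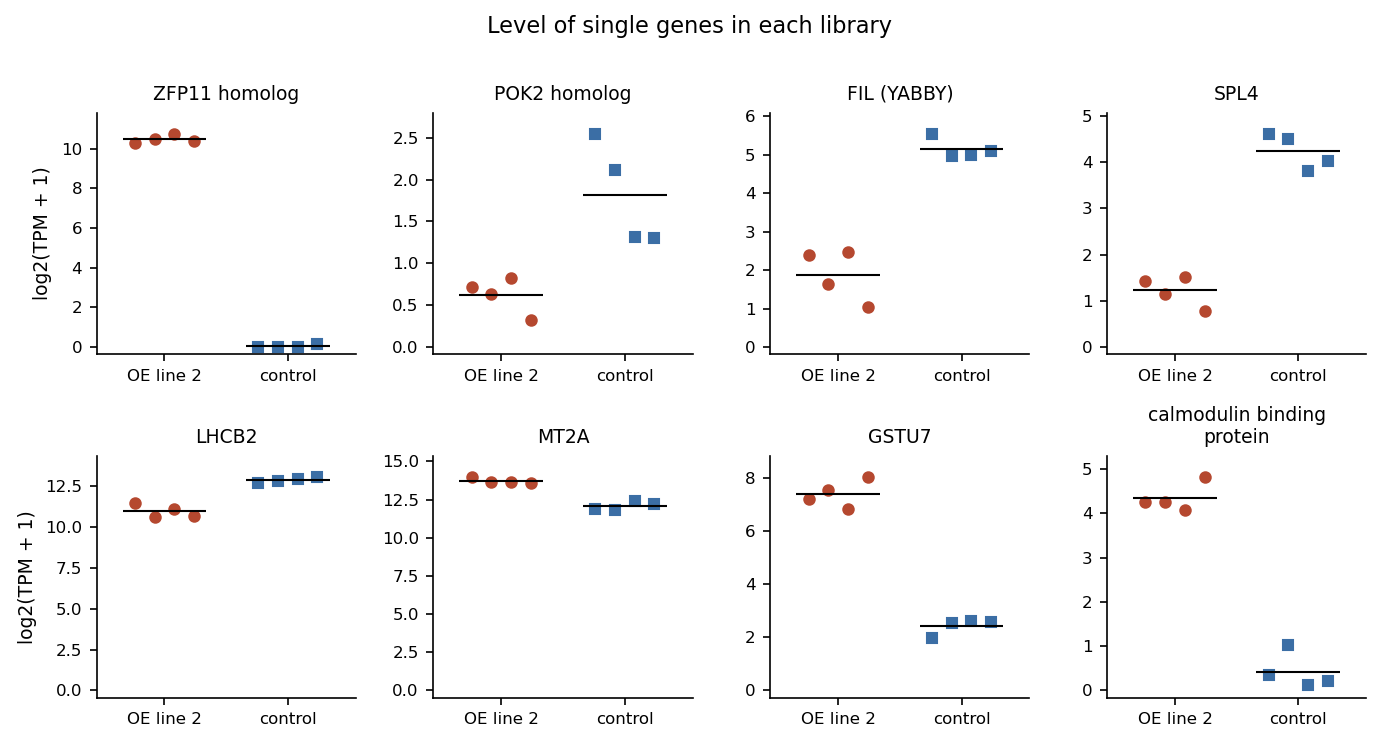
Level of 8 genes in each library as log2(TPM + 1), with line 2 libraries as circles on the left, controls as squares on the right, replicates 1 to 4 from left to right and the group mean as a line. The ZFP11 homolog lay at 1247 to 1714 TPM in line 2 and at no more than 0.112 TPM in controls, and in each of the 8 panels the groups do not overlap.

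Of 24926 genes tested, 12756 (51.2%) passed an adjusted p of 0.05, with 4685 (18.8%) higher and 8071 (32.4%) lower in line 2. By at least 1 on the log2 scale, 2153 genes (8.64%) rose and 3051 (12.2%) fell, and by at least 4, 73 rose (0.293%) and 38 fell (0.152%). In 4124 genes (16.5%) every line 2 library was above every control, and in 7033 (28.2%) every line 2 library was below. The median change of all tested genes was -0.17. Scaling by median ratios moved that median to 0.03, and 6957 genes were then higher and 6098 lower, so the balance of small rises and falls depends on the scaling. Without control replicates 1 and 2, 3277 genes (13.1%) were higher and 3608 (14.5%) lower, and 6579 of these 6885 were among the 12756 with the same sign. Control replicate 1 or 2 left out alone gave 10234 and 10275 genes.

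The transcript pool itself was redistributed. Genes that rose held 33.5%, 38.6%, 31.7% and 43% of all TPM in the 4 line 2 libraries, against 11.5%, 13.7%, 16.8% and 14.8% in the 4 controls. Genes that fell held 17.8%, 13.8%, 17.8% and 12% in line 2, against 39.1%, 35.6%, 32% and 32.6% in controls. These shares describe genes chosen by the same comparison and carry no test. In a unit that divides a fixed total, what some genes gain is taken from others.

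**Figure D2:**
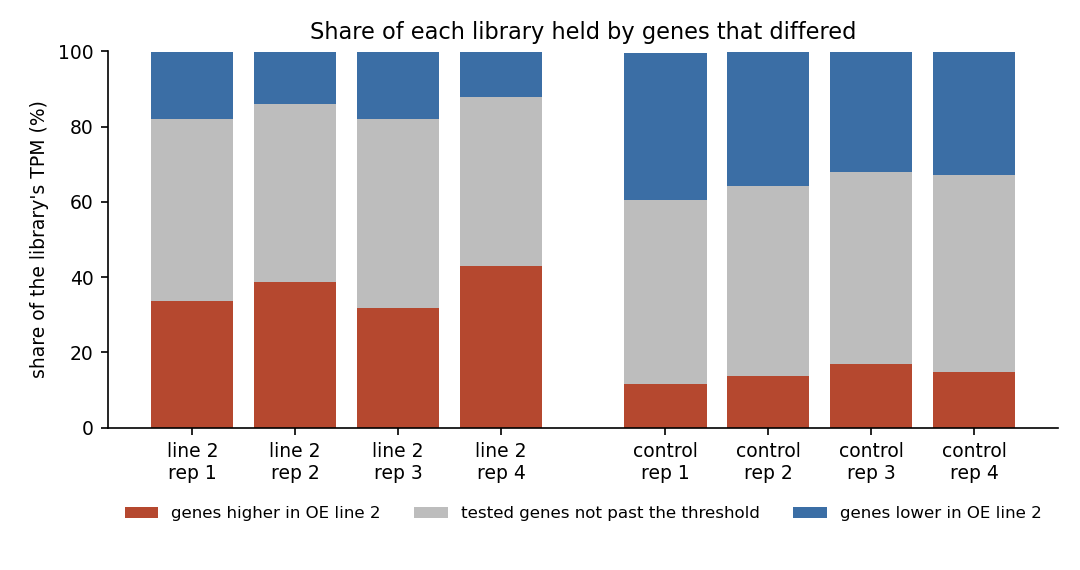
Share of each library's TPM (%) held by genes higher in line 2 (bottom), tested genes not past the threshold (middle) and genes lower in line 2 (top), with line 2 libraries on the left and controls on the right. The bottom part takes 31.7% to 43% of the line 2 libraries and 11.5% to 16.8% of the controls, and genes below the expression filter hold the small remainder.

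Metallothioneins, small cysteine-rich proteins that bind metal ions, were 3 of the 8 described genes that gained the most TPM. The 11 members of the family summed to 73710, 54850, 52340 and 95100 TPM in line 2, against 9654, 12860, 33660 and 19630 TPM in controls, so that every line 2 library was above every control. Of 10 tested members, 5 rose (50%, against 18.8% of all genes) and 1 fell (10%, against 32.4%), with a median log2 fold change of 1.89. An MT3 homolog (Potri.001G400100) was at 48047, 29845, 30792 and 51945 TPM in line 2, against 3971, 5982, 23510.4 and 9647 TPM in controls. Control replicate 3 came closest to line 2 (log2 fold change 2.18, SE 0.54, adjusted p = 0.0067). One MT2A homolog (Potri.009G030800) was at 16101, 13155, 12809.6 and 12423 TPM in line 2, against 3786, 3571, 5550.5 and 4769 TPM in controls (log2 fold change 1.64, SE 0.27, adjusted p = 0.000742). Its line 2 values lay close together, while the second MT2A homolog (Potri.006G085200), at 8993, 11252, 7973 and 23286 TPM in line 2, against 1713, 2982, 4084 and 4592 TPM in controls, was highest in replicate 4 of line 2 (log2 fold change 1.90, SE 0.46, adjusted p = 0.0058). Only 1 metallothionein rose without control replicates 1 and 2, and MT3 (log2 fold change 1.37, adjusted p = 0.0868) and the second MT2A homolog (1.43, adjusted p = 0.0725) missed the threshold. The count of risers was 3 without control replicate 1, control replicate 2, line 2 replicate 2 or line 2 replicate 4.

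Other abundant transcripts gained as well. The cytosolic glutamine synthetase homolog GLN1;1 (Potri.004G085400), which fixes ammonium into glutamine, was at 3158, 3275, 1839 and 2419 TPM in line 2, against 199, 384, 818 and 565 TPM in controls (log2 fold change 2.59, SE 0.42, adjusted p = 0.000676). No line 2 library overlapped a control for this gene or for osmotin OSM34 (Potri.001G102400), a thaumatin-like defence protein. Osmotin was at 1197, 1521, 1967 and 5964 TPM in line 2, against 26.5, 394, 317 and 609 TPM in controls, with replicate 4 of line 2 far above the rest (log2 fold change 3.33, SE 0.84, adjusted p = 0.00739). Thioredoxin TRX1 (Potri.005G232700), a small disulfide-reducing protein, was at 3589 to 7655 TPM in line 2, against 1455 to 2869 TPM in controls (log2 fold change 1.40, adjusted p = 0.00485). Galactinol synthase GolS4 (Potri.008G189400), which starts the raffinose family of sugars, was at 4209.6, 3145, 1522 and 764 TPM in line 2, against 85.1, 99, 901 and 280.1 TPM in controls. Its groups overlapped, since control replicate 3 exceeded line 2 replicate 4, and the change of 3.20 (adjusted p = 0.00459) was 1.98 without control replicates 1 and 2 (adjusted p = 0.0698). The lipid transfer protein LTP1 (Potri.004G086600) also overlapped, at 4254 to 9879 TPM in line 2, against 2656 to 4283 TPM in controls (log2 fold change 0.89, adjusted p = 0.0226). It missed the threshold without line 2 replicate 3 (adjusted p = 0.0595) or control replicate 1 (adjusted p = 0.0643).

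Of the 8 described genes that lost the most TPM, 4 were antenna proteins, which bind chlorophyll and pass light energy to the photosystems. LHCB1.4 (Potri.005G239200) was at 11969, 8026, 9575 and 7272 TPM in line 2, against 18008, 17383, 18924 and 19806 TPM in controls (log2 fold change -1.03, SE 0.22, adjusted p = 0.0033). LHCB2 (Potri.014G165100) was at 2830.2, 1568, 2222 and 1620.0 TPM in line 2, against 6629, 7071, 7647 and 8427 TPM in controls (log2 fold change -1.89, SE 0.22, adjusted p = 0.000103). In both, replicates 2 and 4 of line 2 were the lowest of the 8 libraries, and line 2 did not overlap the controls. A second LHCB1.4 homolog (Potri.002G189300) reached 485 to 2425 TPM in line 2, against 4820.0 to 7430.2 TPM in controls (log2 fold change -2.50, adjusted p = 0.000794), LHCB4.2 (Potri.006G099500) reached 1813 to 3441 TPM in line 2, against 5438 to 6649.5 TPM in controls (log2 fold change -1.28, adjusted p = 0.00101), and the oxygen-evolving protein OEE1 (Potri.007G033700) reached 1255 to 2392 TPM in line 2, against 3976 to 4504 TPM in controls (log2 fold change -1.33, adjusted p = 0.000481).

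Of 103 tested photosystem and light-harvesting genes, 52 fell (50.5%) and 7 rose (6.8%), against 32.4% and 18.8% of all genes (median -0.64, against -0.17 for all genes). Their summed level was 151100, 100300, 129900 and 79990 TPM in line 2 and 187700, 168800, 192900 and 195700 TPM in controls, without overlap. With median ratios as the scaling, 29 fell and 10 rose, and without control replicates 1 and 2 28 fell and 5 rose. One of the risers was ELIP1 (Potri.008G157800), an early light-induced protein that protects the antenna from excess light, at 8.93, 20.3, 15.4 and 13.2 TPM in line 2, against 1.14, 0.755, 1.14 and 2.31 TPM in controls (log2 fold change 2.72, SE 0.30, adjusted p = 6.14e-05). The mesophyll marker sum, which includes antenna genes and overlapped between groups, was also lowest in replicate 4 of line 2, and its part in these falls was not tested. The enzymes that make chlorophyll fell too: of 27 tested, 21 fell (77.8%) and 0 rose. Without control replicates 1 and 2, 11 fell. HEMA1 (Potri.002G107800), which starts tetrapyrrole synthesis, was at 285, 153, 355 and 195 TPM in line 2, against 926, 863, 772 and 807 TPM in controls (log2 fold change -1.84, SE 0.23, adjusted p = 0.00016). Every line 2 library was below every control, as it was for the chlorophyll b enzyme CAO (Potri.005G178300), at 76.9 to 145 TPM in line 2, against 234 to 282 TPM in controls (log2 fold change -1.31, adjusted p = 0.000464).

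Calvin cycle enzymes showed less of this. Of 31 tested, 7 fell (22.6%, below the 32.4% of all genes) and 1 rose, and 4 fell and 0 rose without control replicates 1 and 2, as without control replicate 1 alone. With median ratios as the scaling 4 fell and 1 rose. Their summed level overlapped, at 69620, 51640, 63960 and 31300 TPM in line 2 and 49300 to 62440 TPM in controls, with replicate 4 of line 2 lowest. A triosephosphate isomerase (Potri.004G168000) was at 21.4 to 42.2 TPM in line 2, against 66.3 to 89.5 TPM in controls (log2 fold change -1.17, adjusted p = 0.000684). Of 42 starch and sucrose genes, 20 fell (47.6%) and 0 rose (9 lower without control replicates 1 and 2). A glucan phosphorylase of family 35 (Potri.010G160200), an enzyme that shortens starch chains, was at 3.03, 1.16, 1.47 and 0.697 TPM in line 2, against 28.2, 25.9, 15.6 and 18.7 TPM in controls (log2 fold change -3.20, SE 0.32, adjusted p = 4.08e-05). The debranching isoamylase ISA1 (Potri.006G070800) reached 5.07 to 5.94 TPM in line 2, against 9.24 to 11.9 TPM in controls (log2 fold change -0.82, adjusted p = 0.000163).

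Chlorophyll breakdown and senescence genes had few calls. Of 20 tested, 3 were higher (15%, against 18.8% of all genes) and 4 lower (20%, against 32.4%). Counts were 2 and 2 without control replicates 1 and 2, and 5 and 2 under median ratio scaling. The 2 homologs of NAC042, a factor known in Arabidopsis for delaying leaf senescence, rose. The first (Potri.003G149700) was at 10.5, 14.3, 12.8 and 15.1 TPM in line 2, against 0.367, 0.457, 0.197 and 0.387 TPM in controls (log2 fold change 3.38, SE 0.22, adjusted p = 2.91e-06), and its line 2 values lay close together and far above the controls. The second (Potri.001G080900) was at 4.98 to 22.4 TPM in line 2, against 0 to 0.087 TPM in controls (log2 fold change 3.39, adjusted p = 0.00079).

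**Figure D3:**
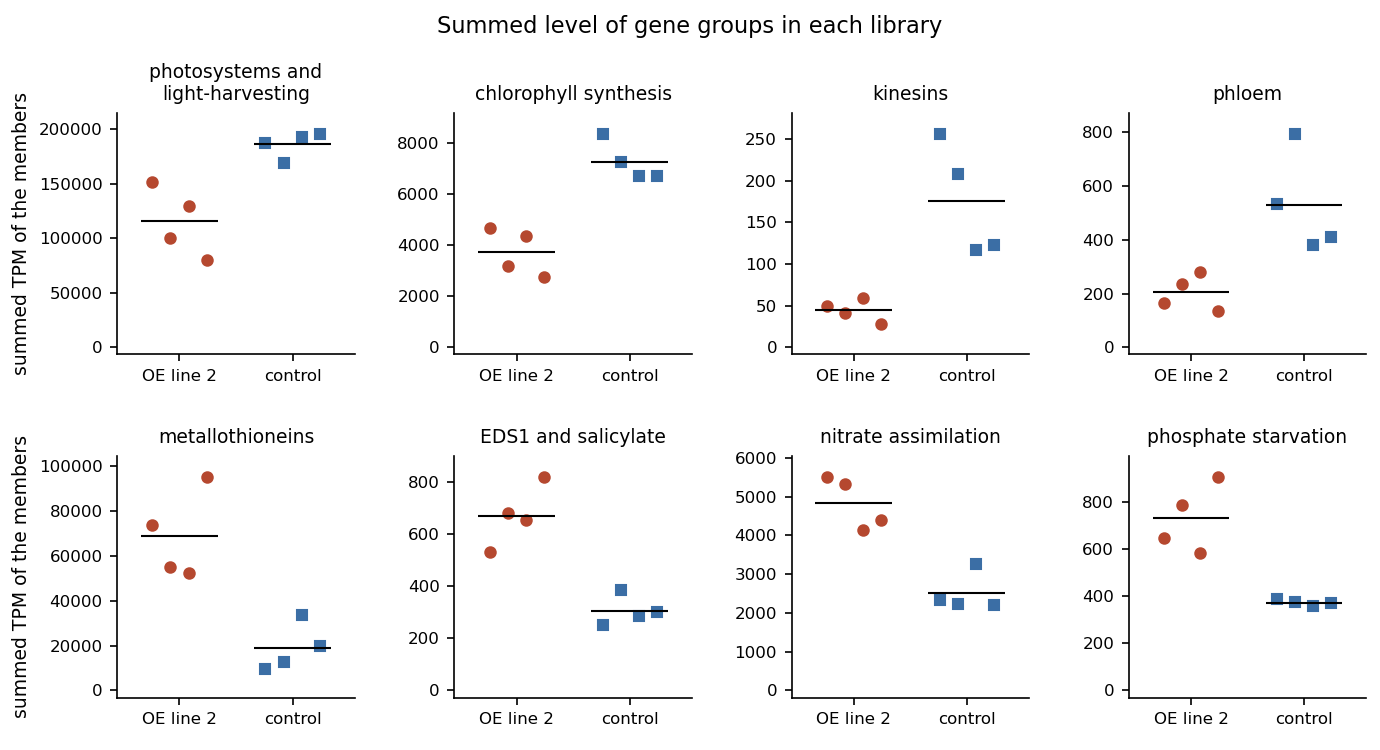
Summed TPM of the members of 8 gene groups in each library, with line 2 libraries as circles on the left, controls as squares on the right, replicates 1 to 4 from left to right and the group mean as a line. Photosystem genes sum to 79990 to 151100 TPM in line 2 and 168800 to 195700 TPM in controls, metallothioneins to 52340 to 95100 TPM in line 2 and 9654 to 33660 TPM in controls, and the panels were chosen after their values were seen, all without overlap. The GLN1;1 homolog Potri.004G085400 holds much of the nitrate assimilation sums in line 2.

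Shares of falls were above the 32.4% of all genes in kinesins, cytokinesis genes and cyclins, and below it in histones and DNA replication genes. Kinesins move cargo and cross-link microtubules, several of them in the spindle and the phragmoplast. Of 29 kinesins, 22 were tested, and 21 of these fell while 0 rose (12 and 0 without control replicates 1 and 2). The summed level of the family was 49.2, 41.55, 59.0 and 27.9 TPM in line 2, against 256.6, 208, 117 and 123 TPM in controls. All controls were above all line 2 libraries, and control replicates 1 and 2 were the highest. A kinesin with no Arabidopsis name (Potri.004G161100) was at 7.57, 3.84, 8.44 and 2.44 TPM in line 2, against 55.4, 48.7, 34.6 and 32.9 TPM in controls (log2 fold change -2.82, SE 0.34, adjusted p = 0.000115). KCBP (Potri.001G455300), a calmodulin-binding kinesin needed for trichome branching, was at 2.23 to 3.6 TPM in line 2, against 9.34 to 19.4 TPM in controls (log2 fold change -1.86, adjusted p = 0.000535). Of 13 tested cytokinesis and phragmoplast genes, 8 fell and 0 rose, and 2 fell without control replicates 1 and 2 (7 fell and 1 rose under median ratio scaling). MAP65-3 (Potri.015G131400), which bundles phragmoplast microtubules, was at 5.42, 3.73, 6.47 and 2.02 TPM in line 2, against 12.5, 8.43, 9.56 and 7.26 TPM in controls (log2 fold change -1.0, SE 0.28, adjusted p = 0.0115). MAP65-3 missed the threshold without control replicates 1 and 2 (-0.87, adjusted p = 0.0933), as did the dynamin homolog DRP1C (Potri.010G105900), at 3.61 to 6.64 TPM in line 2, against 8.25 to 16.2 TPM in controls (-0.75, adjusted p = 0.0596).

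Of 47 tested cyclins and cyclin-dependent kinases, 24 fell and 2 rose. This count was smaller with fewer libraries: 12 to 14 fell when replicate 1, 2 or 4 of line 2 or replicate 1 or 2 of the control was left out, and 6 fell and 0 rose without both of these controls (23 and 4 under median ratio scaling). The reason was not tested. The calls of 2 D-type cyclins, which bring cells into the cycle, held in each of these leave-outs. CYCD1;1 (Potri.010G095200) was at 5.24, 7.45, 3.94 and 6.38 TPM in line 2, against 24.7, 23.3, 19.8 and 19.5 TPM in controls (log2 fold change -1.78, SE 0.18, adjusted p = 3.51e-05). CYCD3;1 (Potri.002G123000) was at 4.82, 4.33, 3.27 and 4.81 TPM in line 2, against 14, 21.5, 9.75 and 17 TPM in controls (log2 fold change -1.60, SE 0.22, adjusted p = 0.000275). For both genes every line 2 library was below every control, with 3 of 4 line 2 values of CYCD3;1 between 4.33 and 4.82 TPM. Of 51 tested core histone genes, 13 fell (25.5%, below the 32.4% of all genes) and 2 rose, with 6 to 8 fallers when line 2 replicate 2 or 4 or control replicate 1 or 2 was left out, 3 without both controls, and 9 lower and 5 higher under median ratio scaling. Of 21 tested DNA replication genes, 6 fell (28.6%, below the 32.4% of all genes) and 0 rose. The counts were 4 lower and 2 higher without control replicates 1 and 2, 5 lower and 3 higher with median ratios as the scaling, and 15 lower without control replicate 3. Ribonucleotide reductase RNR1 (Potri.005G087300), which supplies deoxynucleotides, was at 3.3, 2.18, 3.67 and 1.21 TPM in line 2, against 34.4, 21.1, 6.54 and 8.44 TPM in controls (log2 fold change -2.16, SE 0.47, adjusted p = 0.00369).

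Regulators of leaf shape and blade growth were lower in line 2. The abaxial YABBY factor FIL (Potri.003G112800) was at 4.22, 2.13, 4.53 and 1.07 TPM in line 2, against 45.5, 30.1, 30.7 and 32.8 TPM in controls (log2 fold change -3.25, SE 0.46, adjusted p = 0.000301). Replicate 4 of line 2 was lowest, and the groups were far apart. YAB2 (Potri.001G214700), of the same family, was at 15.4 to 24.1 TPM in line 2, against 38.2 to 52.7 TPM in controls (log2 fold change -1.25, adjusted p = 0.00027). Of 26 tested leaf polarity genes, 15 fell (57.7%, against 32.4% of all genes) and 0 rose (7 and 0 without control replicates 1 and 2). TCP4 (Potri.013G119400), of a class that ends cell proliferation in leaves, was at 11.3, 6.31, 13.9 and 5.1 TPM in line 2, against 38.9, 28.6, 35.5 and 35 TPM in controls (log2 fold change -1.89, SE 0.25, adjusted p = 0.000201). Of 16 tested TCP factors, 11 fell (68.8%) and 1 rose (6 and 1 without these controls). The co-activator GIF1 (Potri.019G013100), which acts with growth-regulating factors to sustain proliferation, was at 2.66, 3.29, 2.36 and 1.61 TPM in line 2, against 19.1, 12.8, 6.04 and 8.18 TPM in controls (log2 fold change -1.76, SE 0.31, adjusted p = 0.00118). Of 14 tested growth-regulating factors and co-activators, 10 fell (71.4%) and 0 rose. But 4 fell without the 2 controls, and 1 rose without line 2 replicate 1 or 3 or under median ratio scaling. The homolog of GRF1 (Potri.007G007100) was at 3.42, 3.27, 5.39 and 2.81 TPM in line 2, against 12.8, 8.79, 4.28 and 6.34 TPM in controls (log2 fold change -0.88, SE 0.27, adjusted p = 0.0173). Its groups overlapped, and it missed the threshold without these controls (log2 fold change -0.43, adjusted p = 0.181).

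SPL factors include targets of miR156 in the change from juvenile to adult growth, but the list was not limited to such targets. Of 24 tested members, 17 fell (70.8%, against 32.4% of all genes) and 2 rose. Without control replicates 1 and 2, 13 fell and 1 rose, and 1 rose also without line 2 replicate 1 or 3 or control replicate 1, 2 or 3. SPL4 (Potri.007G138800) was at 1.72, 1.23, 1.88 and 0.726 TPM in line 2, against 23.5, 21.5, 13 and 15.3 TPM in controls (log2 fold change -3.01, SE 0.28, adjusted p = 2.35e-05). A member without an Arabidopsis name (Potri.015G098900) was at 3.42, 3.55, 4.17 and 1.96 TPM in line 2, against 35.3, 26.5, 21.3 and 30.9 TPM in controls (log2 fold change -2.79, SE 0.34, adjusted p = 0.000128). In both genes all line 2 libraries were below 5 TPM and all controls above 10 TPM.

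Genes of the conducting tissues were lower as well. Whether line 2 leaves held fewer cells of a type or less RNA per cell cannot be told apart in these bulk samples. Of 19 tested phloem genes, 16 fell (84.2%, against 32.4% of all genes) and 0 rose. Between 7 and 10 fell when line 2 replicate 1 or 4 or control replicate 1 or 2 was left out, and 3 without both controls. Summed phloem levels were 166, 237, 282 and 135 TPM in line 2, against 533, 795, 382 and 411 TPM in controls, without overlap. APL (Potri.010G174100), a factor that gives phloem its identity, was at 10.9, 14.3, 13.8 and 11.1 TPM in line 2, against 24.2, 25.3, 20.3 and 22.8 TPM in controls (log2 fold change -0.84, SE 0.14, adjusted p = 0.000702). The groups were apart, as they were for the second APL homolog (Potri.008G081800), at 7.48 to 10.3 TPM in line 2, against 12.9 to 16.3 TPM in controls (log2 fold change -0.69, adjusted p = 0.00109).

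Of 46 tested xylem and secondary wall genes, 35 fell (76.1%) and 2 rose (20 and 2 without control replicates 1 and 2). The laccase LAC11 (Potri.007G023300), which polymerises lignin, was at 0.335, 0.322, 0.771 and 0.211 TPM in line 2, against 14.9, 13.8, 13 and 15.5 TPM in controls (log2 fold change -3.45, SE 0.25, adjusted p = 6.2e-06). NST1 (Potri.011G153300), a NAC factor that switches on secondary wall synthesis, was at 3.94, 5.04, 3.6 and 3 TPM in line 2, against 12.1, 13.2, 10.4 and 10.1 TPM in controls (log2 fold change -1.36, SE 0.14, adjusted p = 5.19e-05). In both genes the groups were wide apart and the controls close to each other. KNAT7 (Potri.001G112200), a homeobox factor of secondary walls, was at 5.41 to 7.04 TPM in line 2, against 17.6 to 21.7 TPM in controls (log2 fold change -1.42, adjusted p = 4.47e-05). Monolignol enzymes, which make the lignin units, held more rises and fewer falls than all genes. Of 38 tested, 11 rose (28.9%, against 18.8% of all genes) and 4 fell (10.5%, against 32.4%). Counts were 6 and 2 without the 2 controls, with 2 fallers without line 2 replicate 1 or 2 or control replicate 1, 2 or 4. Under median ratio scaling 16 rose and 2 fell. The acyltransferase HCT (Potri.018G105400) was at 13.5, 18.1, 21.7 and 14.9 TPM in line 2, against 3.2, 2.25, 4.8 and 4.93 TPM in controls (log2 fold change 1.93, SE 0.22, adjusted p = 9.47e-05). Ferulate 5-hydroxylase FAH1 (Potri.005G117500), which leads to syringyl units, was at 2.03, 2.23, 0.187 and 0.865 TPM in line 2, against 15.6, 17.6, 12 and 15.9 TPM in controls (log2 fold change -2.90, SE 0.31, adjusted p = 5.68e-05). Thus HCT was higher and FAH1 lower in all 4 line 2 libraries than in any control.

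Guard cell and epidermal genes showed falls with exceptions. Of 10 tested guard cell and stomatal lineage genes, 6 fell (60%, against 32.4% of all genes) and 0 rose. Without control replicates 1 and 2, 2 fell. MYB60 (Potri.019G045900), a guard cell factor that promotes stomatal opening, was at 5.27, 2.79, 3.76 and 0.891 TPM in line 2, against 21.4, 22.7, 20.1 and 20.5 TPM in controls (log2 fold change -2.54, SE 0.31, adjusted p = 0.000135). The controls were nearly equal and replicate 4 of line 2 was the lowest. Of 12 tested epidermis and trichome genes, 6 fell (50%) and 2 rose (16.7%, near the 18.8% of all genes). Without the 2 controls 3 fell and 2 rose. TTG1 (Potri.012G006100), a WD40 protein of trichome and pigment control, was at 31.5, 40.6, 32.4 and 54.3 TPM in line 2, against 12.3, 12.3, 12.4 and 12.7 TPM in controls (log2 fold change 1.57, SE 0.15, adjusted p = 2.88e-05). GL3 (Potri.001G103600), its bHLH partner in Arabidopsis, was at 6.97, 8.68, 4.53 and 6.89 TPM in line 2, against 19.5, 17.1, 12.3 and 15.8 TPM in controls (log2 fold change -1.16, SE 0.19, adjusted p = 0.000803). The 2 partners thus moved in opposite directions, each without overlap between groups.

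The primary wall and the surface held several of the largest falls. Expansin EXPA15 (Potri.013G060800), which loosens walls, was at 1.73, 1.72, 1.81 and 0.797 TPM in line 2, against 83.2, 103, 57.2 and 98.3 TPM in controls (log2 fold change -5.09, SE 0.68, adjusted p = 0.000225). The proline-rich wall protein PRP4 had 2 homologs, one (Potri.004G168600) at 97.3, 27.7, 118 and 3.11 TPM in line 2, against 1419.9, 1345, 1220.0 and 1025 TPM in controls (log2 fold change -5.18, SE 1.15, adjusted p = 0.00382). Replicates 1 and 3 of line 2 kept more PRP4 than replicates 2 and 4, and the other homolog (Potri.009G129900), at 45.4, 9.79, 75.7 and 4.03 TPM in line 2, against 1016, 1139.6, 689 and 638 TPM in controls, had the same order of replicates (log2 fold change -5.33, SE 1.16, adjusted p = 0.00356). A gene of the invertase and pectin methylesterase inhibitor superfamily (Potri.015G128400) was at 0.636 to 17 TPM in line 2, against 148 to 239 TPM in controls (log2 fold change -5.10, adjusted p = 0.00141). Shares of all tested genes were 32.4% lower and 18.8% higher. Among pectin methylesterases, lyases and polygalacturonases, 49 of 100 tested fell (49%) and 9 rose (9%), and 27 and 4 without control replicates 1 and 2. Of 23 tested expansins, 10 fell (43.5%) and 3 rose (13%), and 4 and 0 without these controls, with 1 riser without either of them alone. Of 42 arabinogalactan and fasciclin proteins, 19 fell (45.2%) and 3 rose (7.14%). These counts were 5 and 1 without the 2 controls, and 12 were lower without control replicate 1 alone.

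Xyloglucan endotransglucosylases, which cut and rejoin wall xyloglucan, went both ways. XTH32 (Potri.009G006600) was at 105, 169, 82.5 and 78.5 TPM in line 2, against 2.42, 1.87, 1.15 and 2.06 TPM in controls (log2 fold change 5.21, SE 0.36, adjusted p = 4.59e-06), and XTH5 (Potri.001G071000) was at 16.9, 11.7, 29.5 and 8.67 TPM in line 2, against 206, 214, 147 and 149.9 TPM in controls (log2 fold change -3.46, SE 0.66, adjusted p = 0.00174). Neither gene overlapped between groups. Of 20 tested members 4 rose (20%) and 7 fell (35%), near the 18.8% and 32.4% of all genes, but 5 rose and 4 fell under median ratio scaling. Next to ZFP11, the largest rise among described genes with a mean of at least 5 TPM was in extensin EXT4 (Potri.005G190100), a structural wall glycoprotein, at 138, 334, 267 and 620.5 TPM in line 2, against 0.562, 2.93, 7.37 and 5.98 TPM in controls (log2 fold change 6.09, SE 0.74, adjusted p = 0.000128). Among arabinogalactan proteins, AGP1 (Potri.017G050200) was at 40.1, 40.7, 29.3 and 48.2 TPM in line 2, against 5.25, 6.3, 2.13 and 3.52 TPM in controls (log2 fold change 2.99, SE 0.26, adjusted p = 1.65e-05), whereas AGP14 (Potri.003G220901) was at 1819, 1237, 1539 and 591 TPM in line 2, against 4020.4, 3321, 4058 and 4082 TPM in controls (log2 fold change -1.69, SE 0.41, adjusted p = 0.0059).

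At the leaf surface, the GDSL lipase LTL1 (Potri.019G024400) had the largest fall among described genes with a mean of at least 5 TPM, at 1.5, 2.09, 3.71 and 0.198 TPM in line 2, against 394, 259.9, 252 and 199.9 TPM in controls (log2 fold change -6.71, SE 0.70, adjusted p = 4.78e-05). An HXXXD acyltransferase (Potri.010G208100) followed, at 0, 0, 0.22 and 0.064 TPM in line 2, against 148, 119.8, 63.1 and 97.7 TPM in controls (log2 fold change -6.60, SE 0.70, adjusted p = 5.45e-05). Every control of these 2 genes was above 60 TPM and every line 2 library below 4 TPM. Of all tested genes 32.4% fell and 18.8% rose. Of 70 tested GDSL lipases, 34 fell (48.6%) and 11 rose (15.7%), and 18 and 9 without control replicates 1 and 2. Of 53 lipid transfer proteins, which carry lipids to the surface, 26 fell (49.1%) and 3 rose (5.66%). Their counts were 13 and 1 without these controls, with 1 riser without line 2 replicate 3 or control replicate 1, and 5 risers under median ratio scaling. Wax and cutin genes fell in 14 of 35 tested members (40%, not far above all genes) and rose in 3 (8.57%). Of these, 9 were lower without control replicate 1 or line 2 replicate 2 and 8 without both controls. The exporter ABCG11 (Potri.018G152600), which moves wax and cutin lipids out of the cell, was at 61.8, 87.3, 61.4 and 83.4 TPM in line 2, against 37.6, 42.7, 31.5 and 35.9 TPM in controls (log2 fold change 0.96, SE 0.15, adjusted p = 0.000492). It was higher in all line 2 libraries than in any control.

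Several lists of defence and signalling genes held larger shares of rises than the 18.8% of all genes. Of 31 tested members of the EDS1, PAD4, SAG101 and salicylate list, 17 rose (54.8%) and 5 fell, and 14 rose and 2 fell without control replicates 1 and 2. Their summed level was 529, 679, 651.5 and 818 TPM in line 2 and 252, 385, 285 and 300.4 TPM in controls, without overlap. A calmodulin binding protein-like gene (Potri.012G054900) was at 18.1, 18.2, 15.9 and 27.3 TPM in line 2, against 0.267, 1.03, 0.086 and 0.156 TPM in controls (log2 fold change 3.93, SE 0.23, adjusted p = 1.52e-06). Its copy (Potri.015G045300) was at 16.3, 15.6, 14.8 and 18.4 TPM in line 2, against 0.226, 0.708, 0.09 and 0.098 TPM in controls (log2 fold change 3.77, SE 0.18, adjusted p = 7.4e-07). Line 2 libraries of the copy lay within a narrow range while each control was below 1 TPM. A TIR-NBS-LRR gene (Potri.004G230000) was at 10.1, 13.3, 9.68 and 19 TPM in line 2, against 0.187, 0.446, 0.064 and 0.07 TPM in controls (log2 fold change 3.52, SE 0.22, adjusted p = 2.16e-06). Yet of 243 tested TIR and NB-ARC immune receptors 41 rose (16.9%) and 84 fell (34.6%), shares close to those of all genes (27 and 53 without the 2 controls, and 62 and 77 under median ratio scaling). The described families differed. Of 41 tested genes of the TIR-NBS-LRR class family, 18 rose (43.9%) and 5 fell (12.2%). Among 111 described as NB-ARC domain-containing, 11 rose (9.91%) and 54 fell (48.6%). Among 46 with LRR and NB-ARC domains, 1 rose and 18 fell (39.1%). These families were picked after their counts were seen.

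Receptor-like kinases, which sense signals at the cell surface, rose in 217 of 506 tested members (42.9%) and fell in 147 (29.1%), with 180 and 61 without control replicates 1 and 2. A lectin receptor kinase (Potri.016G031300) was at 29.4, 30.03, 25.9 and 29.7 TPM in line 2, against 0.902, 2.24, 2.28 and 1.79 TPM in controls (log2 fold change 3.44, SE 0.17, adjusted p = 7.4e-07). PR5K (Potri.017G009201), a kinase with a thaumatin-like outer domain, was at 15.5, 21.6, 25.9 and 24 TPM in line 2, against 1.65, 1.83, 1.62 and 2.03 TPM in controls (log2 fold change 3.01, SE 0.19, adjusted p = 2.77e-06). Both were near 1 to 2 TPM in controls and above 15 TPM in every line 2 library. Families of the same kinase class differed: of 34 tested genes described as receptor-like protein kinase 1, 27 rose and 3 fell, and of 33 described as leucine-rich receptor-like protein kinases, 4 rose and 25 fell. These 2 families were chosen after their counts were seen, as the highest and the lowest of the receptor kinase families with at least 20 tested genes.

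WRKY factors, regulators of defence and senescence genes, rose in 31 of 76 tested members (40.8%) and fell in 10, and 17 rose and 6 fell without control replicates 1 and 2. WRKY57 (Potri.010G160100) was at 17.1, 19.4, 11.2 and 14.4 TPM in line 2, against 0.523, 0.837, 0.92 and 1.51 TPM in controls (log2 fold change 3.08, SE 0.25, adjusted p = 1.19e-05). WRKY26 (Potri.019G123500) was at 26.3, 46, 39.6 and 67.4 TPM in line 2, against 5.85, 9.47, 11.1 and 9.31 TPM in controls (log2 fold change 2.16, SE 0.25, adjusted p = 0.000103). Line 2 was above the controls in every library of both genes. Pathogenesis-related, thaumatin and chitinase genes rose in 29 of 79 tested members (36.7%) and fell in 22 (21 and 10 without these controls). The summed level of this list overlapped between groups, at 5025, 5969, 7575 and 12390 TPM in line 2 and 2334, 4978, 3743 and 6217 TPM in controls. Thaumatins went mostly the other way. Of 24 tested genes described as pathogenesis-related thaumatin superfamily proteins, 1 rose (4.17%) and 17 fell (70.8%), with a median of -1.33. The Kunitz trypsin inhibitor KTI1 (Potri.004G000400), a defence protein against feeding insects, was at 15, 52.6, 157 and 378 TPM in line 2, against 0, 0, 0.581 and 2.76 TPM in controls (log2 fold change 5.76, SE 1.36, adjusted p = 0.00535). Its line 2 values spread widely, and it missed the threshold without control replicates 1 and 2 (adjusted p = 0.0655).

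**Figure D4:**
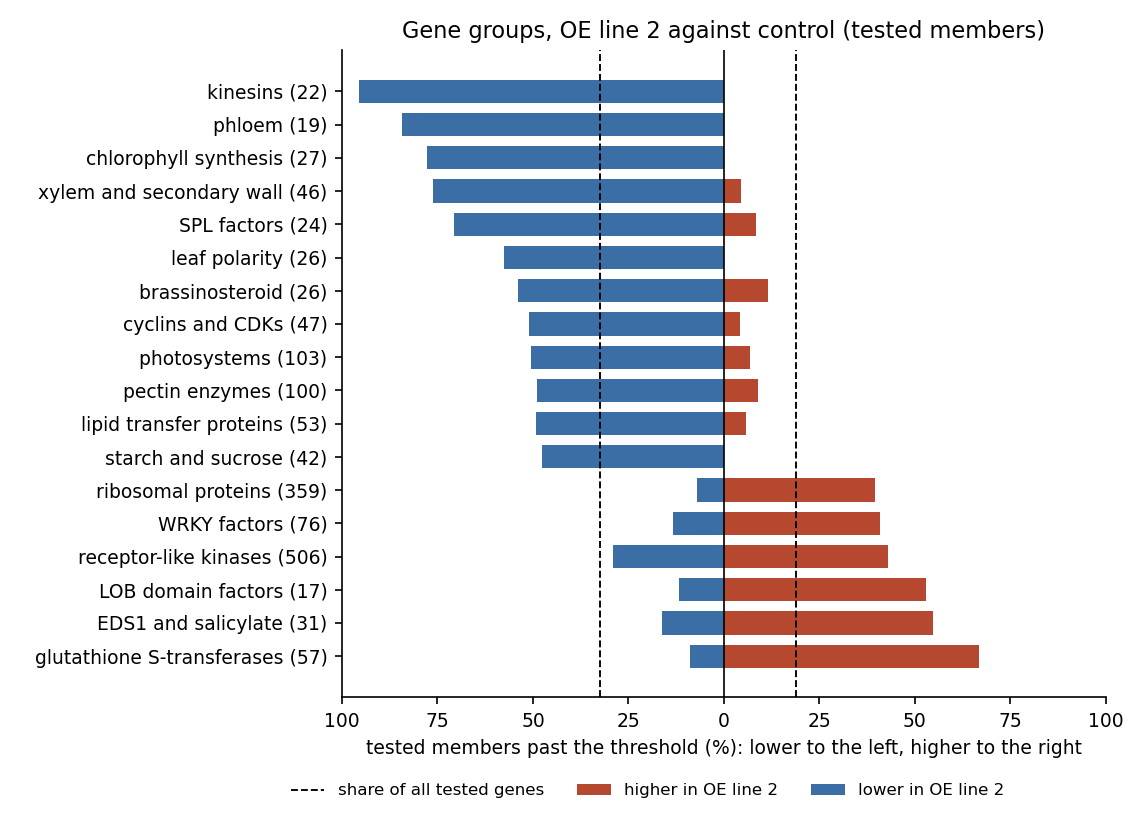
Share of tested members (%) past an adjusted p of 0.05 in 18 of the 72 gene lists, with falls in line 2 drawn to the left, rises to the right and the number of tested members in parentheses. Dashed lines mark the shares of all tested genes, 32.4% lower and 18.8% higher, and the lists were chosen for display after their counts were seen.

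Glutathione S-transferases, which attach glutathione to reactive and foreign compounds, had the highest share of rises among the lists with at least 20 tested members. Of 57 tested, 38 rose (66.7%) and 5 fell (8.77%), and 30 rose and 2 fell without control replicates 1 and 2. GSTU7 (Potri.008G174900) was at 149, 186, 116 and 264 TPM in line 2, against 2.9, 4.8, 5.21 and 4.91 TPM in controls (log2 fold change 5.0, SE 0.35, adjusted p = 5.39e-06). GSTU19 (Potri.011G114000) was at 8.05, 16.3, 8.93 and 12.6 TPM in line 2, against 0.396, 0.985, 0.114 and 0.062 TPM in controls (log2 fold change 3.16, SE 0.26, adjusted p = 1.26e-05). Both were below 6 TPM in every control. The summed level of the family overlapped between groups, at 5246, 7584, 6467 and 7408 TPM in line 2 and 4339 to 6038 TPM in controls. Glutathione peroxidase GPX2 (Potri.007G126600), which reduces peroxides, was at 30.8, 48.3, 59.8 and 70.6 TPM in line 2, against 3.1, 4.81, 3.72 and 6.2 TPM in controls (log2 fold change 3.26, SE 0.27, adjusted p = 1.26e-05). Among 34 tested oxidative stress enzymes, 9 rose (26.5%) and 6 fell (17.6%), and 9 and 0 without the 2 controls.

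Specialised metabolism changed in both directions. Cytochrome P450s rose in 61 of 182 tested members (33.5%) and fell in 38 (38 and 23 without control replicates 1 and 2), while UDP-glycosyltransferases rose in 49 and fell in 49 of 166 (29.5% each, 38 and 27 without these controls). Neighbouring identifiers of CYP712A1 (Potri.006G057900 and Potri.006G058000) rose together. The first was at 108, 138, 13.8 and 65.9 TPM in line 2, against 0, 0, 0.034 and 0 TPM in controls (log2 fold change 5.95, SE 0.63, adjusted p = 5.45e-05). The second was at 68.8, 101, 10.8 and 48.8 TPM in line 2, against 0, 0, 0.034 and 0 TPM in controls. Replicate 3 of line 2 was the lowest in both copies, and the division of reads between such copies is uncertain. CYP71B37 (Potri.012G090000) was at 106, 108, 42.8 and 85.3 TPM in line 2, against 3.46, 2.71, 1.97 and 1.97 TPM in controls (log2 fold change 4.55, SE 0.28, adjusted p = 2.16e-06). UGT88A1 (Potri.015G027700), by contrast, was at 4.5, 4.09, 4.99 and 6.34 TPM in line 2, against 30.9, 28.3, 21.1 and 24.4 TPM in controls (log2 fold change -2.18, SE 0.18, adjusted p = 1.09e-05). Of 41 tested flavonoid and anthocyanin genes 9 rose (22%) and 12 fell (29.3%), near the shares of all genes, but 13 rose and 10 fell under median ratio scaling and 7 rose and 2 fell without control replicates 1 and 2. Chalcone isomerase TT5 (Potri.010G213000) was at 137, 211, 215 and 187 TPM in line 2, against 60.9, 61.3, 46.9 and 63.8 TPM in controls (log2 fold change 1.66, SE 0.21, adjusted p = 0.000139). The flavonol regulator MYB111 (Potri.003G144200) was at 9.62, 15.2, 17.2 and 31.5 TPM in line 2, against 4.33, 3.43, 1.71 and 2.08 TPM in controls (log2 fold change 2.25, SE 0.31, adjusted p = 0.000252).

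Nitrate assimilation and amino acid synthesis genes summed to 5504, 5315, 4148 and 4409 TPM in line 2, against 2321, 2241, 3251 and 2213 TPM in controls. Every line 2 library was above every control, although 6 of 19 tested genes rose (31.6%, against 18.8% of all genes) and 6 fell (31.6%, near the 32.4%). Counts were 5 and 0 without control replicates 1 and 2, with 1 to 3 fallers without control replicate 1, 2 or 3 or line 2 replicate 2 or 4. With median ratios as the scaling, 6 rose and 1 fell. Much of the line 2 sums came from the GLN1;1 homolog Potri.004G085400. It was at 3158, 3275, 1839 and 2419 TPM in line 2, against 199, 384, 818 and 565 TPM in controls. The separation of the sums is therefore not a trait of the whole list, and sums without this gene were not compared. The glutamine synthetase homolog GSR2 (Potri.005G093200) was at 56.9, 74.6, 57.9 and 98.7 TPM in line 2, against 7.32, 9.78, 8.46 and 7.1 TPM in controls (log2 fold change 2.97, SE 0.23, adjusted p = 9.56e-06). Phosphate starvation genes rose in 5 of 21 tested members (23.8%) and fell in 2 (9.52%), with 1 faller without control replicates 1 and 2. The transporter PHT1;5 (Potri.001G318500) was at 123, 166, 44.9 and 173 TPM in line 2, against 0.219, 1.37, 4.58 and 4.08 TPM in controls (log2 fold change 5.24, SE 0.56, adjusted p = 5.63e-05). Control replicate 1 was the lowest and line 2 replicate 3 the lowest of its group. PHT1;7 (Potri.005G223600) was at 132, 185, 121 and 308 TPM in line 2, against 16.9, 29.8, 30.4 and 39.2 TPM in controls (log2 fold change 2.60, SE 0.34, adjusted p = 0.000218). Ferritin FER2 (Potri.010G184500), which stores iron in plastids, was at 7.56, 4.79, 9.23 and 21 TPM in line 2, against 102, 74.2, 97.3 and 71.6 TPM in controls (log2 fold change -3.07, SE 0.49, adjusted p = 0.000668).

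Ribosomal proteins rose in small steps. Of 359 tested, 142 (39.6%) rose and 25 fell (6.96%), with a median of 0.36, and 168 rose and 3 fell without control replicates 1 and 2. Under median ratio scaling 253 rose and 12 fell, and 13 to 15 fell without line 2 replicate 2 or 4 or control replicate 1 or 2. Their summed level overlapped, at 20650, 28050, 26450 and 27910 TPM in line 2 and 24930, 22970, 18350 and 18540 TPM in controls, with line 2 replicate 1 below control replicates 1 and 2. RPS28 (Potri.016G063100) was at 46.5, 66, 44 and 58.6 TPM in line 2, against 27.1, 27.5, 27.8 and 24.6 TPM in controls (log2 fold change 0.96, SE 0.13, adjusted p = 0.00026). Proteins that fold others in the endoplasmic reticulum rose in 5 of 22 tested members (22.7%, near the 18.8% of all genes) and fell in 0, with 3 risers without control replicate 2 and 9 under median ratio scaling. Calreticulin CRT3 (Potri.019G055200), a chaperone needed for immune receptors, was at 159.6, 199, 188 and 127 TPM in line 2, against 41.1, 63.1, 53.5 and 33.3 TPM in controls (log2 fold change 1.82, SE 0.29, adjusted p = 0.000592). Hypoxia genes rose in 8 of 18 tested members (44.4%) and fell in 1, with 5 risers without line 2 replicate 2 and 5 without the 2 controls. LBD41 (Potri.004G100100) was at 26.9, 28.5, 18.8 and 21.5 TPM in line 2, against 4.59, 3.97, 6.45 and 3.38 TPM in controls (log2 fold change 2.17, SE 0.22, adjusted p = 3.68e-05). A pyruvate decarboxylase (Potri.016G120100), the first enzyme of ethanol fermentation, was at 102, 122, 84.4 and 85 TPM in line 2, against 25.3, 36.1, 26.8 and 25 TPM in controls (log2 fold change 1.76, SE 0.20, adjusted p = 9.1e-05).

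Of the hormone lists, brassinosteroid genes fell in 14 of 26 tested members (53.8%) and rose in 3 (9 and 1 without control replicates 1 and 2). The synthesis enzyme BR6OX2 (Potri.017G099000), which makes brassinolide, was at 1.63, 0.906, 2.99 and 1.82 TPM in line 2, against 27.7, 16.8, 12 and 11.8 TPM in controls (log2 fold change -2.64, SE 0.29, adjusted p = 6.57e-05). CPD (Potri.010G189800), an earlier step, was at 23.1, 14.5, 17.5 and 12.1 TPM in line 2, against 47.5, 58.7, 56.6 and 51.9 TPM in controls (log2 fold change -1.65, SE 0.22, adjusted p = 0.000225). Gibberellin genes fell in 13 of 38 (34.2%, near the 32.4% of all genes) and rose in 4 (5 and 3 without these controls). The receptor GID1C (Potri.005G040600) was at 79.5, 81.2, 49.8 and 74.1 TPM in line 2, against 16.5, 28.3, 28.3 and 30.3 TPM in controls (log2 fold change 1.44, SE 0.21, adjusted p = 0.000449). The synthesis gene GA20ox2 (Potri.007G103800) was at 8.12, 12.7, 14.3 and 3.23 TPM in line 2, against 1.71, 0.568, 0 and 0.021 TPM in controls (log2 fold change 2.72, SE 0.45, adjusted p = 0.000762). Both were above the controls in all 4 line 2 libraries. Of 43 tested abscisic acid genes 9 rose (20.9%) and 15 fell (34.9%), shares near those of all genes (2 and 10 without the 2 controls). The receptor PYR1 (Potri.001G142500) was at 53.7, 33.3, 67.9 and 33.7 TPM in line 2, against 11.6, 9, 13.1 and 9.35 TPM in controls (log2 fold change 1.98, SE 0.26, adjusted p = 0.000228), while CYP707A4 (Potri.002G126100), which inactivates the hormone, was at 3.56, 2.49, 6.47 and 3.58 TPM in line 2, against 63.2, 52.3, 38.4 and 40.8 TPM in controls (log2 fold change -3.33, SE 0.34, adjusted p = 4.15e-05).

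Of 56 tested SAUR genes, small early auxin-response genes, 12 rose (21.4%) and 24 fell (42.9%, and 12 and 14 without control replicates 1 and 2). One (Potri.002G145300) was at 40.9, 86.8, 72 and 163 TPM in line 2, against 3.09, 2.13, 4.28 and 2.08 TPM in controls (log2 fold change 4.42, SE 0.42, adjusted p = 2.88e-05), and another (Potri.004G164400) was at 0.765, 0.409, 0.335 and 0 TPM in line 2, against 120.2, 77.4, 45.8 and 35.6 TPM in controls (log2 fold change -5.56, SE 0.40, adjusted p = 6.2e-06). Neither gene overlapped between groups. Of 83 tested Aux/IAA, ARF, GH3 and transport genes, 9 rose (10.8%) and 29 fell (34.9%, near the 32.4% of all genes; 4 and 18 without the 2 controls, with 4 or 5 risers without line 2 replicate 2 or 3 or control replicate 1 or 2). ARF7 (Potri.006G077800), an activator of auxin responses, was at 12.8, 12.1, 7.97 and 12.8 TPM in line 2, against 54.1, 52, 39.9 and 38.8 TPM in controls (log2 fold change -1.93, SE 0.21, adjusted p = 5.4e-05). ARF15 (Potri.004G220100) was at 239, 369, 261 and 687 TPM in line 2, against 6.92, 19.7, 43.6 and 31 TPM in controls (log2 fold change 4.02, SE 0.47, adjusted p = 9.94e-05), with replicate 4 of line 2 highest and control replicate 1 lowest.

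Of 43 tested jasmonate genes 4 rose (9.3%) and 6 fell (14%), below the shares of all genes (0 and 5 without control replicates 1 and 2, and 1 or 2 risers without line 2 replicate 2 or 4 or control replicate 1 or 2). The repressor JAZ9 (Potri.008G133400) was at 53.7, 55.8, 63.8 and 70.4 TPM in line 2, against 144, 193, 166 and 173 TPM in controls (log2 fold change -1.46, SE 0.23, adjusted p = 0.000548). Of 29 tested ethylene synthesis and signalling genes 4 rose (13.8%) and 6 fell (20.7%), also below those shares (0 and 1 without the 2 controls, and 2 risers without line 2 replicate 2 or 4 or control replicate 1 or 3), and 6 rose and 4 fell under median ratio scaling. The ethylene-forming enzyme ACO4 (Potri.014G159000) was at 626, 556, 676 and 647 TPM in line 2, against 1388, 1806, 2137 and 1979 TPM in controls (log2 fold change -1.53, SE 0.16, adjusted p = 5.02e-05). It was below every control in all line 2 libraries, whereas ERF1 (Potri.011G061700), an ethylene response factor, was at 5.48, 13, 9.81 and 21 TPM in line 2, against 0, 0.524, 0.396 and 0.924 TPM in controls (log2 fold change 3.09, SE 0.33, adjusted p = 5.18e-05). Of 20 tested cytokinin genes 6 rose (30%) and 4 fell (20%), while 10 rose and 2 fell under median ratio scaling and 9 and 2 with quantile normalization (3 risers without line 2 replicate 2 or 4 or control replicate 4, 2 fallers without line 2 replicate 2 or 3 or control replicate 1 or 2, and 1 faller without both controls). The receptor AHK3 (Potri.003G171000) was at 16.9, 13.7, 14.2 and 16.5 TPM in line 2, against 37.4, 36.6, 22.3 and 27.2 TPM in controls (log2 fold change -0.94, SE 0.16, adjusted p = 0.000942).

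Among transcription factors, homeobox genes fell in 34 of 74 tested members (45.9%) and rose in 5, GRAS genes fell in 18 of 35 (51.4%) and rose in 5, and DOF and GATA genes fell in 26 of 63 (41.3%) and rose in 7, against 32.4% lower and 18.8% higher of all genes. Without control replicates 1 and 2 these counts were 15 and 3, 8 and 4, and 13 and 6. Median ratio scaling gave 25 and 11 for homeobox, 13 and 7 for GRAS and 20 and 14 for DOF and GATA genes. Risers among homeobox genes were 3 without line 2 replicate 2, and among DOF and GATA genes 4 without line 2 replicate 2 or control replicate 3. GATA16 (Potri.014G124400) was at 18.9, 16.1, 16.3 and 12.9 TPM in line 2, against 58.6, 63.3, 49.8 and 55 TPM in controls (log2 fold change -1.76, SE 0.12, adjusted p = 4.59e-06). GNC (Potri.006G229200), a GATA factor that promotes greening, was at 39.7, 29.4, 39.9 and 20.7 TPM in line 2, against 113, 96.5, 75.6 and 95.8 TPM in controls (log2 fold change -1.56, SE 0.21, adjusted p = 0.000234). Both were lower in every line 2 library than in any control. LOB domain genes rose in 9 of 17 tested members (52.9%) and fell in 2 (5 and 2 without the 2 controls), and NAC genes rose in 25 of 74 (33.8%) and fell in 18 (13 and 13). LBD38 (Potri.009G089600), which restrains nitrate response genes, was at 21.3, 23.6, 14.2 and 11.9 TPM in line 2, against 1.76, 4.32, 6.8 and 2.77 TPM in controls (log2 fold change 1.99, SE 0.35, adjusted p = 0.00122). NAC036 (Potri.004G181900) was at 17.2, 28.7, 14.3 and 45.9 TPM in line 2, against 1.06, 1.42, 1.64 and 0.926 TPM in controls (log2 fold change 3.48, SE 0.31, adjusted p = 1.68e-05). AP2/ERF genes rose in 30 of 114 (26.3%) and fell in 17 (14 and 8 without these controls). MYB genes rose in 24 of 126 (19%) and fell in 44 (34.9%), close to the shares of all genes (10 and 29 without these controls, and 35 and 37 under median ratio scaling).

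Poplar often holds a pair of near copies of a gene. In 4669 pairs, both tested poplar genes shared 1 paired Arabidopsis locus with no further tested gene. They are called copies here by that locus alone. Poplar sequences were not compared, so whether the genes of a pair are duplicates of each other was not tested. Both copies passed in the same direction in 1292 pairs, 329 higher and 963 lower, and in opposite directions in 174. One copy passed in 1836 pairs and neither in 1367. Among the opposite pairs the copies of CYP93D1 differed most. One copy (Potri.006G058200) was at 8.82, 13.2, 0.715 and 3.92 TPM in line 2, against 0, 0, 0.035 and 0 TPM in controls (log2 fold change 2.54, SE 0.52, adjusted p = 0.00266). The other (Potri.013G027000) was at 5.18, 1.31, 8.04 and 1.14 TPM in line 2, against 50.9, 35.8, 28.1 and 34.2 TPM in controls (log2 fold change -3.20, SE 0.59, adjusted p = 0.00141), so that the copies were high in opposite groups. In a pair of HXXXD acyltransferases one copy (Potri.015G100800) was at 124, 150.3, 55.4 and 134 TPM in line 2, against 16, 24.1, 45.9 and 36.3 TPM in controls (log2 fold change 1.90, SE 0.35, adjusted p = 0.00153). The other (Potri.001G326300) was at 1.82, 2.11, 1.35 and 25 TPM in line 2, against 12.2, 16.5, 43.5 and 37 TPM in controls (log2 fold change -2.38, SE 0.75, adjusted p = 0.0207), with line 2 replicate 4 inside the control range. It missed the threshold (adjusted p from 0.0504 to 0.0564) without line 2 replicate 1, 2 or 3 or control replicate 3 or 4.

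A few genes were listed in 1 group only. Listed at 0 in all 4 controls and at 1 TPM or more in all line 2 libraries were 7 genes, of which 3 have a description. NGA4 (Potri.012G013501), a B3 factor of organ shape, was at 1.27, 1.83, 2.45 and 2.81 TPM in line 2, against 0, 0, 0 and 0 TPM in controls. SIB1 (Potri.016G093900), a sigma factor binding protein, was at 1.04, 2.99, 2.66 and 1.64 TPM in line 2, against 0, 0, 0 and 0 TPM in controls. Listed at 0 in all line 2 libraries and at 1 TPM or more in all controls were 3 genes, 2 SAUR genes (Potri.009G127100 and Potri.004G164900) and an F-box gene (Potri.011G042900). Their highest control value was 4.84 TPM, in Potri.009G127100, so that all 3 were low in controls too.

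Line 2 libraries were not alike in how far they moved. Replicate 4 was the farthest from the control mean in 2581 of the 4685 genes that rose (55.1%) and in 4128 of the 8071 that fell (51.1%). Its median distance was 1.12 on the log2 scale for genes that rose and 0.98 for genes that fell. Replicates 1 and 3 lay nearest, with median distances of 0.70 and 0.75 for genes that rose and 0.81 and 0.68 for genes that fell. These distances describe genes chosen by the same libraries. Of 16539 genes with a mean of at least 5 TPM, 925 had a range of at least 2 on the log2 scale within line 2 and 569 within the controls. Median ranges were 0.574 in line 2 and 0.501 in controls. Replicate 4 of line 2 correlated at 0.967 with line 7 replicate 3, against 0.916, 0.960 and 0.918 with line 2 replicates 1, 2 and 3.

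**Figure D5:**
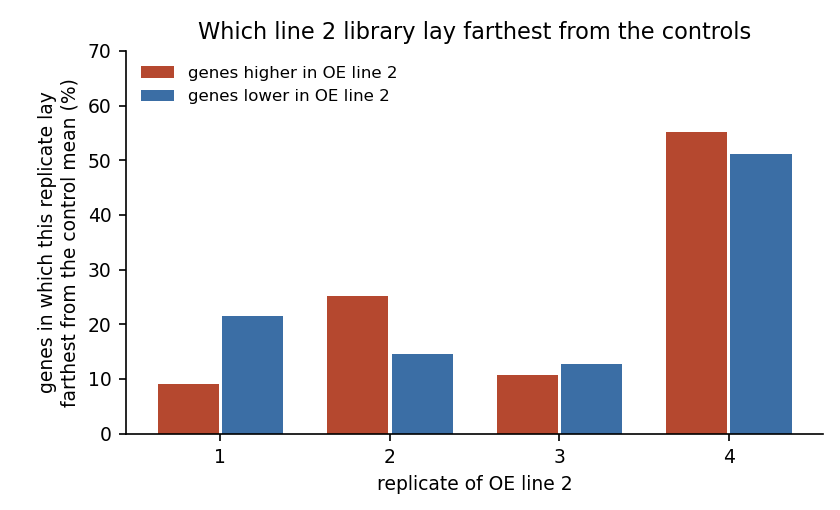
Share of genes (%) in which each line 2 replicate lay farthest from the control mean, for the 4685 genes higher and the 8071 genes lower in line 2. Replicate 4 takes 55.1% and 51.1%, and each other replicate takes no more than 25.1%.

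Described genes with the widest ranges differed in which line 2 replicate was high. The peroxiredoxin PER1 (Potri.008G099900), a protein of seeds and dehydrating tissue, was at 112, 638, 31.2 and 1.98 TPM in line 2, against 0, 0, 0.08 and 0 TPM in controls (log2 fold change 5.65, SE 1.75, adjusted p = 0.0191). It missed the threshold without line 2 replicate 2 (adjusted p = 0.0578) and without control replicates 1 and 2 (adjusted p = 0.107). The iron-response factor ORG2 (Potri.006G037600) was at 16.3, 89.2, 4.83 and 0.527 TPM in line 2, against 0, 0, 0 and 0 TPM in controls, with an adjusted p of 0.0478 that was lost without line 2 replicate 1, 2 or 3 or any 1 control (adjusted p from 0.0562 to 0.137). PER1 and ORG2 were highest in replicate 2 and lowest in replicate 4, while replicate 4 was highest in 2 protease inhibitors. A Kazal-type inhibitor (Potri.014G109000) was at 3.11, 16.6, 24.8 and 185 TPM in line 2, against 0, 0.48, 1.46 and 4.52 TPM in controls (adjusted p = 0.0526), and a potato type I inhibitor (Potri.016G079100) was at 0.977, 16.8, 15.6 and 118 TPM in line 2, against 0.282, 0.14, 0 and 0.132 TPM in controls (adjusted p = 0.0638). Both passed without line 2 replicate 1 (adjusted p = 0.0276 and 0.0309). A gene of the phosphorylase superfamily (Potri.013G101000) ranged within both groups, at 9.42, 152, 0.69 and 12.6 TPM in line 2, against 0.823, 36.3, 8.77 and 45.9 TPM in controls (log2 fold change 0.06, adjusted p = 0.974). Line 7 also ranged widely in PER1 (9.43, 149, 3.37 and 984 TPM) and ORG2 (1.05, 8.93, 2.62 and 140 TPM).

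Line 2 was set against line 7 to see whether the lines differ. By limma 0 of 24926 genes passed an adjusted p of 0.05, with a smallest adjusted p of 0.6615. An unadjusted p under 0.05 was found in 418 genes (1.68%), a smaller share than chance alone gives on average at that limit. These 418 are therefore no list of differences between the lines. The median absolute difference was 0.11 on the log2 scale, against a median SE of 0.18. No call does not show that the lines are alike. The ZFP11 homolog was at 1247, 1426, 1714 and 1353 TPM in line 2, against 1551, 1210.3, 1502 and 1315 TPM in line 7, overlapping ranges with a difference of 0.04 (SE 0.13). The smallest p among described genes with lower values in line 2 was that of a MYB-like factor (Potri.016G048000), at 0.147, 0.24, 1.66 and 0.416 TPM in line 2, against 6.07, 16.4, 5.64 and 3.77 TPM in line 7 (log2 difference -2.38, SE 0.39, adjusted p = 0.869). A cupredoxin (Potri.002G101300) was at 39.1, 26.5, 17 and 11.9 TPM in line 2, against 6.7, 3.29, 4.57 and 4.27 TPM in line 7 (log2 difference 2.01, SE 0.38, adjusted p = 1). Line 2 was below line 7 in every library of the MYB-like factor and above it in every library of the cupredoxin. The controls held 3.92 to 8.20 TPM of the MYB-like factor and 7.11 to 23.0 TPM of the cupredoxin.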

How the data were processed

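RNA was measured in leaves of 12 libraries, and the 4 of line 2 and 4 controls were compared. The deposited table holds TPM per gene, which the authors made with Salmon after read trimming with cutadapt and quality control with FastQC, per the submitters' processing notes. The sources used here give no versions, genome build or annotation. Complementary DNA was primed with oligo(dT), per the labels' protocols. TPM keeps no sequencing depth.

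Values were analysed as log2(TPM + 1), which understates the change of low genes. Genes with at least 1 TPM in at least 4 of 12 libraries were tested (24926 of 34749). All 12 libraries entered 1 limma fit (version 3.58.1, R 4.3.3) with a trend and a shared spread, and p-values were adjusted by Benjamini-Hochberg over all tested genes at 0.05. Single-gene checks used an exact permutation test over 70 splits. In simulated data of 24926 genes for line 2 against control, the fit recovered 59% of 100 genes given a log2 change of 1 and 94% of 100 given 2, with 3 false calls. Simulated noise was independent between libraries, with the same spread in each, and only these more abundant genes were changed. The real libraries differed in weight and scaling, so the simulation gives no rate of false calls for them.

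Members and gene lists (72 lists) were chosen with earlier results of these data known, and counts stand beside those of all genes. The named genes are the SUPERMAN relatives and POK homologs, the 10 largest rises and falls with a mean of at least 5 TPM, the 8 genes that gained and the 8 that lost the most TPM, up to 2 of smallest p per list, 5 pairs of copies with opposite changes, genes at 0 in 1 group, 8 of widest range in line 2 and 5 of smallest p each way between the lines. Alternatives were other pseudocounts, filters, scalings, thresholds, a replicate block and libraries left out. Leaving out control replicates 1 and 2 together was chosen with their low weights known. Python 3.11.15 was used for counts and figures. No sequence is shown, as no reference was used here.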

Additional observations from a re-analysis of the deposited data

Results flagged for a closer look

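Among 412 groups of 4 libraries of the named genes, 26 were flagged because 1 library lay far from the other 3 by Dixon's criterion. Some groups with all values under 1 TPM were not flagged although 1 library stood apart. Examples are the controls of ZFP11 (0, 0, 0 and 0.112 TPM) and of CYP712A1 Potri.006G057900 (0, 0, 0.034 and 0 TPM). Chance flags about 1 in 20 groups, but the 26 are not a full count over the 412 and cannot be set against that rate. Their split between line 2 and controls is likewise incomplete. Of the 26, 19 were in line 2 (9 in replicate 4, 6 in replicate 3, 2 in replicate 2 and 2 in replicate 1) and 7 in controls (4 in replicate 1 and 3 in replicate 2). The named genes include 8 chosen for their wide range in line 2, so the larger number of flags in line 2 follows in part from that choice.

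Replicate 4 of line 2 stood apart upward in 8 genes and downward in EXPA15 (0.797 TPM, others 1.72 to 1.81 TPM). It was high in osmotin OSM34 (5964.5 TPM, others 1197 to 1967 TPM), EDA4 (1.085 TPM, others 0.07 to 0.237 TPM) and both NHL25 homologs, Potri.012G145500 (58.838 TPM, others 4.71 to 9.12 TPM) and Potri.017G154000 (1.308 TPM, others 0.063 to 0.183 TPM). It was also high in the acyltransferase Potri.001G326300 (25.047 TPM, others 1.35 to 2.11 TPM), the potato type I inhibitor Potri.016G079100 (117.97 TPM, others 0.977 to 16.8 TPM), the Rossmann-fold gene Potri.008G149200 (97.163 TPM, others 1.03 to 11.7 TPM) and the Kazal-type inhibitor Potri.014G109000 (184.74 TPM, others 3.11 to 24.8 TPM). Line 7 libraries also spread widely in some of these genes. Potri.016G079100 was at 0.44, 1.04, 244 and 79.3 TPM in line 7, Potri.014G109000 at 2.19, 2.44, 160 and 72.1 TPM and Potri.012G145500 at 4.0, 5.14, 44.3 and 34.4 TPM. In OSM34 (1584 to 3104 TPM) and Potri.001G326300 (0.869 to 7.13 TPM) no line 7 library reached line 2 replicate 4.

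Replicate 3 of line 2 was low in ARF7 (7.975 TPM, others 12.1 to 12.8 TPM), EIN2 (10.06 TPM, others 12.1 to 12.5 TPM) and the lectin kinase Potri.016G031300 (25.95 TPM, others 29.4 to 30.03 TPM). It was high in the wall protein Potri.013G144200 (797.68 TPM, others 119 to 205 TPM), the dirigent gene Potri.003G216400 (212.56 TPM, others 138 to 151 TPM) and the undescribed Potri.001G141825 (14.406 TPM, others 1.18 to 2.46 TPM). Replicate 2 was high in the phosphorylases Potri.013G101000 (151.96 TPM, others 0.69 to 12.6 TPM) and Potri.013G100800 (98.328 TPM, others 0.356 to 6.42 TPM). Replicate 1 was high in ILR3 (10.282 TPM, others 2.94 to 3.94 TPM) and low in HSP60 (9.765 TPM, others 11.2 to 11.4 TPM).

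Control replicate 1 was high in the histone gene HTA12 (461.31 TPM, others 357 to 365 TPM), KNAT7 (21.697 TPM, others 17.6 to 18.0 TPM) and SVP (14.97 TPM, others 9.22 to 9.84 TPM), and low in GID1C (16.492 TPM, others 28.3 to 30.3 TPM). Control replicate 2 was high in the pyruvate decarboxylase Potri.016G120100 (36.106 TPM, others 24.96 to 26.8 TPM) and PIP3 (774.68 TPM, others 605 to 611 TPM), and low in AGP14 (3320.6 TPM, others 4020.4 to 4082 TPM).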

How the results depend on the processing

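The count of 12756 genes past the threshold in line 2 against control was 8240 (4833 lower) among genes with a mean of at least 5 TPM, 7653 (2858 higher, 4795 lower) at an adjusted p under 0.01, 5204 (2153 higher, 3051 lower) with log2 fold changes of 1 or more, and 6885 (3608 lower) without control replicates 1 and 2. With 1 library left out it ranged from 10234 to 12653 (3634 to 4944 higher, 6185 to 8504 lower). Quantile normalization gave 6061 higher and 6518 lower. Without control replicates 1 and 2 the ZFP11 homolog differed by 10.40 and the POK2 homolog by -0.68 (exact permutation p = 0.0667 for both, the smallest possible). With 1 library left out POK2 differed by -1.36 to -0.95 and POK1 by -0.70 to -0.34. The phosphorylase Potri.013G100800, not past the threshold, changed sign from -0.0001 to 0.0912 with a pseudocount of 5, 0.1455 under median ratio scaling and 1.1447 with library weights, and ranged from -1.20 to 0.86 with 1 library left out. Its neighbour Potri.013G101000, likewise not past it, was at -0.63 without control replicates 1 and 2 and ranged from -1.10 to 1.07. The cause was not tested for any of these. Of 144 list counts, 90 moved by over 1.5 times without control replicates 1 and 2, 50 with the mean filter, 26 under median ratio scaling and 24 without control replicate 1. Line 2 against line 7 gave 0 genes by limma under each alternative run, and a fit of 8 libraries was not run for it. The labels do not say whether replicate numbers pair the samples, and the main fit did not pair them. Deviations of samples with equal numbers correlated at 0.27, 0.15, -0.23 and 0.41, against -0.39 to 0.30 for unequal numbers. These values do not decide whether the samples are paired. With a replicate block 12527 genes passed, 11929 of them shared with the same sign. TPM gives no depth, so no limit from counting can be stated.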

Other observations

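Further lists are given here beside the shares of all genes, 18.8% higher and 32.4% lower. Aquaporins, the water channels of plant membranes, rose in 12 of 36 tested members (33.3%) and fell in 10 (27.8%, and 9 and 4 without control replicates 1 and 2). PIP3 (Potri.009G136600) was at 108, 157, 117 and 153 TPM in line 2, against 611, 775, 605 and 605 TPM in controls (log2 fold change -2.28, SE 0.26, adjusted p = 8.47e-05). SIP2;1 (Potri.016G024900) was at 24.4, 30.3, 23 and 23.6 TPM in line 2, against 13.4, 11.1, 15.2 and 12 TPM in controls (log2 fold change 0.92, SE 0.13, adjusted p = 0.000322). Each gene was without overlap between groups. Heat shock proteins and factors rose in 23 of 103 tested members (22.3%) and fell in 22 (21.4%, with 15 risers without line 2 replicate 2, and 11 and 15 without the 2 controls). HSP60 (Potri.002G252900), a chaperonin, was at 9.77 to 11.4 TPM in line 2, against 5.15 to 7.02 TPM in controls (log2 fold change 0.70, adjusted p = 0.000737), and an HSP70 family gene (Potri.004G016700) at 3.61 to 4.77 TPM in line 2, against 6.65 to 9.74 TPM in controls (log2 fold change -0.72, adjusted p = 0.00174).

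Circadian clock genes fell in 7 of 30 tested members (23.3%) and rose in 1 (3.33%), but 5 rose and 3 fell under median ratio scaling, and 0 rose and 1 fell without control replicates 1 and 2. Iron genes rose in 3 of 18 (16.7%) and fell in 6 (33.3%), or 4 and 3 under median ratio scaling, with 1 riser without line 2 replicate 1, 2 or 3 or control replicate 1 or 2, and 1 riser and 3 fallers without the 2 controls. PYE (Potri.015G142700), a regulator of iron deficiency responses, was at 25.1, 33.2, 14.2 and 15.7 TPM in line 2, against 7.45, 7.76, 5.92 and 7.11 TPM in controls (log2 fold change 1.44, SE 0.33, adjusted p = 0.0045). Its partner ILR3 (Potri.004G031800) was at 10.3, 3.87, 3.94 and 2.94 TPM in line 2, against 53.4, 45.3, 39.7 and 44.4 TPM in controls (log2 fold change -3.02, SE 0.30, adjusted p = 3.68e-05). MADS-box genes fell in 8 of 13 tested members (61.5%) and rose in 0 (6 and 1 under median ratio scaling), with 5 fallers without line 2 replicate 2 or 4, control replicate 1 or 2 or both controls and 1 riser without line 2 replicate 2. SVP (Potri.007G010800), a factor of flowering and bud dormancy, was at 4.59, 4.85, 4.7 and 5.22 TPM in line 2, against 15, 9.58, 9.84 and 9.22 TPM in controls (log2 fold change -1.0, SE 0.14, adjusted p = 0.000268). Terpene synthases rose in 3 of 21 tested members (14.3%) and fell in 6 (28.6%), with 3 fallers without line 2 replicate 1 or control replicate 2 or 4 and 2 without the 2 controls. TPS21 (Potri.015G085500) was at 12.8, 22.8, 10.9 and 15.7 TPM in line 2, against 0.279, 0.378, 0.589 and 0.237 TPM in controls (log2 fold change 3.55, SE 0.64, adjusted p = 0.00125).

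Some of the widest differences were in loci without a description. Potri.002G055566, chosen after its values were seen, was at 8888, 21894, 5067 and 32.1 TPM in line 2, against 5.2, 1.51, 4.47 and 0.81 TPM in controls (log2 fold change 9.41, SE 1.71, adjusted p = 0.00134). Replicate 4 of line 2 held far less of it than the other line 2 replicates and still more than any control. Potri.005G206901, chosen likewise, was at 1775, 5509, 1163 and 23.8 TPM in line 2, against 3.34, 2.95, 0.956 and 0.404 TPM in controls (log2 fold change 8.12, SE 1.47, adjusted p = 0.00134).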
